A study of Cicer arietinum with 8 samples.

Results

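The cold response that flowers of 4 chickpea (Cicer arietinum) genotypes shared was measured on a spotted cDNA array in 10 of the 22 distinct hybridisations of the study. These were all the hybridisations of flower tissue, which per the labels was a pool of flowers, buds and early pods. Sonali (Tolerant1, 3 hybridisations) and an accession of the ILC collection (Tolerant2, 2 hybridisations) stood for cold tolerance, and Amethyst (Susceptible1, 3 hybridisations) and DOOEN (Susceptible2, 2 hybridisations) for susceptibility. For Tolerant2 and Susceptible2 the files of replicate 3 held the values of replicate 1 and were counted once.

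Treated and control plants, 5 per pool and 2 weeks past flowering, stood in a glasshouse in which the days were at 15 to 25 °C. The treated plants had nights of 12 h at 5 °C and were harvested after 7 of them, together with control plants of the same genotype that stayed at 15 to 25 °C. Each hybridisation set the RNA of a treated pool against that of a control pool in 2 dyes, Cy3 and Cy5, so its log2 ratio of cold over control was a response within 1 genotype. Each genotype was 1 accession, and the tolerance classes thus rested on 2 accessions each. Leaves of the same genotypes (12 hybridisations) served for comparison. In such pools fewer cells of a type and less RNA per cell cannot be told apart. The labels called the replicates biological without saying how plants were divided among them, so the p-values measure the spread between these hybridisations.

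Plants that meet temperatures above freezing but too low for growth are known to alter the transcripts of osmolyte synthesis, of dehydrins that shield membranes and proteins, of the cell wall, of photosynthesis and of defence. In chickpea, low temperature at flowering is known to impair pollen function and pod set. Polyamines are small charged molecules that accumulate in many plants under cold or osmotic stress. S-adenosylmethionine decarboxylase makes the aminopropyl donor from which spermidine and spermine are formed.

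The shared response was the mean log2 ratio of the 4 genotypes, each given equal weight. Of the 756 features other than controls, 446 had values in at least 2 hybridisations of each genotype and were tested with limma. After Benjamini-Hochberg adjustment 5 of them (1.12% of those tested) were called at an adjusted p below 0.05, 3 induced (0.673%) and 2 repressed (0.448%), and 1 of the 5 (0.224%) was at least 2-fold changed. These were the transcripts of S-adenosylmethionine decarboxylase (DY475170), of GRP 1.8 (DY396342), a glycine-rich protein of cell walls, of 1 protein annotated as unknown (DY475191) and of 2 annotated as unclear (EB085017 and DY475175). The accessions are those of the study's feature list. At an unadjusted p below 0.05 there were 35 features (7.85%), 13 higher and 22 lower, where 22.3 would be reached by chance in independent tests. When hybridisations of the same number in both genotypes of a set (Tolerant1 with Susceptible1, or Tolerant2 with Susceptible2) were treated as a block, the number called was 0, the number at an unadjusted p below 0.05 was 19, and the smallest adjusted p was 0.0864.

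The S-adenosylmethionine decarboxylase transcript had the highest mean ratio of all features tested. Its log2 ratios were 0.93, 1.26 and 1.44 in Tolerant1, 1.43 and 0.98 in Tolerant2, 0.81 and 1.73 in replicates 2 and 3 of Susceptible1, and 0.96 and 0.99 in Susceptible2. It was thus above 0 in 9 of 9 hybridisations with a value, and the ranges of the genotypes overlapped. The mean was 1.16 (SE 0.20, adjusted p = 0.0135), a 2.24-fold higher level, with a 95% interval from 0.73 to 1.59. With the replicate block the adjusted p was 0.0864 and the interval ran from 0.64 to 1.65. The mean was 1.24 in Tolerant1 and Susceptible1 and 1.09 in Tolerant2 and Susceptible2, and it was 1.08 with the cold RNA in Cy5 and 1.28 with it in Cy3. The Tolerant1 values of 0.93 and 1.26 rested on 1 and 3 of the 6 spots, the others being flagged. Where flagged spots were kept, the feature was no longer both called and at least 2-fold changed. The feature was dim in control flowers, where the signal was 2.08 to 2.95 times the local background. It is also among the transcripts that the study had named for cold on these same samples, so its direction here is no independent evidence.

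The transcript EB085017, whose function the feature list gives as unclear, was the most strongly repressed. Its log2 ratios were -1.06, -0.29 and -0.33 in Tolerant1, -1.04 and -1.03 in Tolerant2, -0.89, -1.14 and -0.38 in Susceptible1, and -0.98 and -0.46 in Susceptible2. All 10 hybridisations lay below 0, and both values of Tolerant2 fell within the ranges of Tolerant1 and Susceptible1 but below those of Susceptible2. The mean was -0.78 (SE 0.15, adjusted p = 0.0145), or 0.0864 with the replicate block. It was -0.68 in Tolerant1 and Susceptible1 and -0.88 in Tolerant2 and Susceptible2. This feature was bright, at 4.09 to 45.1 times the background in the control channel.

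A transcript of unknown function, DY475191, was above 0 in 10 of 10 hybridisations. Its log2 ratios were 0.63, 1.27 and 0.83 in Tolerant1, 0.38 and 0.52 in Tolerant2, 0.42, 1.13 and 0.79 in Susceptible1, and 0.12 and 0.46 in Susceptible2. The mean was 0.61 (SE 0.12, adjusted p = 0.0178), and the adjusted p was 0.184 with the replicate block. The mean of Tolerant1 and Susceptible1 was 0.84, against 0.37 for Tolerant2 and Susceptible2.

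The glycine-rich protein GRP 1.8, a structural protein known from the cell walls of vascular tissue in bean, was the only grasspea cDNA among the 5. Its log2 ratios were 0.20 and 0.87 in replicates 2 and 3 of Tolerant1, 0.49 and 0.63 in Tolerant2, 1.37 and 0.71 in replicates 2 and 3 of Susceptible1, and -0.12 and 0.67 in Susceptible2. It was above 0 in 7 of 8 hybridisations with a value, the exception being replicate 1 of Susceptible2. The mean was 0.60 (SE 0.13, adjusted p = 0.0358), and the adjusted p was 0.432 with the replicate block. Tolerant1 and Susceptible1 averaged 0.79, and Tolerant2 and Susceptible2 averaged 0.42.

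The transcript DY475175, annotated as unclear, differed from the other 4 in that its mean did not rest on all genotypes. Its log2 ratios were -1.61 and -1.25 in Susceptible2 and -0.78, -0.79 and -0.40 in Tolerant1. They were close to 0 in Tolerant2, at -0.02 and 0.03, and -0.22, 0.12 and -0.51 in Susceptible1. The highest value of Susceptible2 was thus below the lowest of every other genotype. The mean over the genotypes was -0.57 (SE 0.11, adjusted p = 0.0356; 0.284 with the replicate block). The mean was -0.43 in Tolerant1 and Susceptible1 and -0.71 in Tolerant2 and Susceptible2. The limma F test of differences among genotypes did not call this feature.

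**Figure D1:**
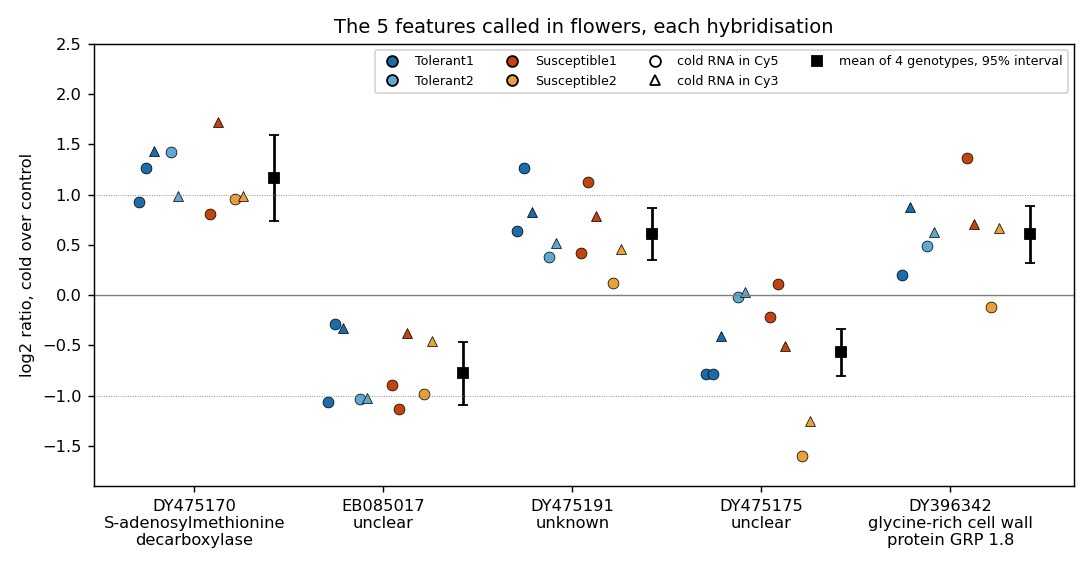
Log2 ratio of cold over control (vertical axis) for the 5 features called in flowers, with a point for each hybridisation coloured by genotype, a circle where the cold RNA was in Cy5 and a triangle where it was in Cy3. The black square and bar are the mean of the 4 genotypes and its 95% interval; S-adenosylmethionine decarboxylase lies between 0.81 and 1.73 in the 9 hybridisations with a value, whereas the DY475175 values of Tolerant2 sit at 0.

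Single hybridisations decided how many features passed. The count fell from 5 to 0 without replicate 1 of Tolerant2, without its replicate 2 or without replicate 1 of Susceptible2, and to 1 without replicate 3 of Susceptible1. It was 2 without replicate 2 of Susceptible2, and 3 without replicate 2 of either Tolerant1 or Susceptible1. The means that could be tested moved less than the calls. On leaving out each of the 10 hybridisations in turn, EB085017 stayed between -0.84 and -0.71. S-adenosylmethionine decarboxylase stayed between 1.11 and 1.22 in the 8 settings that left it enough values for the test. It had no such mean without replicate 2 or without replicate 3 of Susceptible1, its only values in that genotype. How far its mean rested on either of these was thus not tested, and the counts there leave it out.

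The same sign in every hybridisation with a value was found for 6 of the 446 features (1.35%), of which 3 were higher and 3 lower, and 3 of the 6 were among the 5 called. The remaining 3 did not pass the test. A caffeoyl-CoA methyltransferase (CV793595), an enzyme of lignin precursor synthesis, was below 0 in 10 of 10 hybridisations. Its values ran from -0.71 to -0.11, with a mean of -0.33 (SE 0.10, adjusted p = 0.186). A grasspea feature of like annotation, DY396415, had too few values for the test, and they differed in sign. They were 1.07 and -0.35 in Tolerant2, 0.34 and -0.25 in Susceptible2 and 0.33 in replicate 3 of Susceptible1. A protein kinase (DY475103) was above 0 in 10 of 10, but reached 1.54 and 1.42 only in replicate 2 of Tolerant1 and of Susceptible1 and lay between 0.00 and 0.58 elsewhere (mean 0.37, adjusted p = 0.847). The unknown transcript EB085024 was at -1.91 and -1.65 in the same 2 hybridisations and at -1.14 in replicate 2 of Tolerant2, and between -0.25 and -0.07 in the rest (mean -0.54, adjusted p = 0.535). All 4 genotype means had the same sign for 90 features (20.2%), 48 higher and 42 lower.

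Below the threshold, the features of smallest p were mostly of unknown function. Among those with higher ratios, the unknown transcript DY475178 was above 0 in 9 of 10 hybridisations (mean 0.54, adjusted p = 0.0741). The photosystem I subunit IX transcript (DY475047), which encodes a small chloroplast protein of the reaction centre, had a mean of 0.47 (adjusted p = 0.418) that came from 1.58, 1.56 and 1.25 in replicate 1 of Tolerant1, replicate 1 of Susceptible1 and replicate 2 of Susceptible2. The other 7 values of this feature ran from -0.37 to 0.68. A translation initiation factor (DY475237) was above 0 in 9 of 10 hybridisations but small in size, at 0.21. Among those with lower ratios, an RNA/ssDNA binding protein (DY475357) had a mean of -0.35 (adjusted p = 0.277) and was below 0 in 8 of 10 hybridisations. A glucosyltransferase (DY475498), which attaches sugar to small molecules, had a mean of -0.34 (adjusted p = 0.365).

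**Figure D2:**
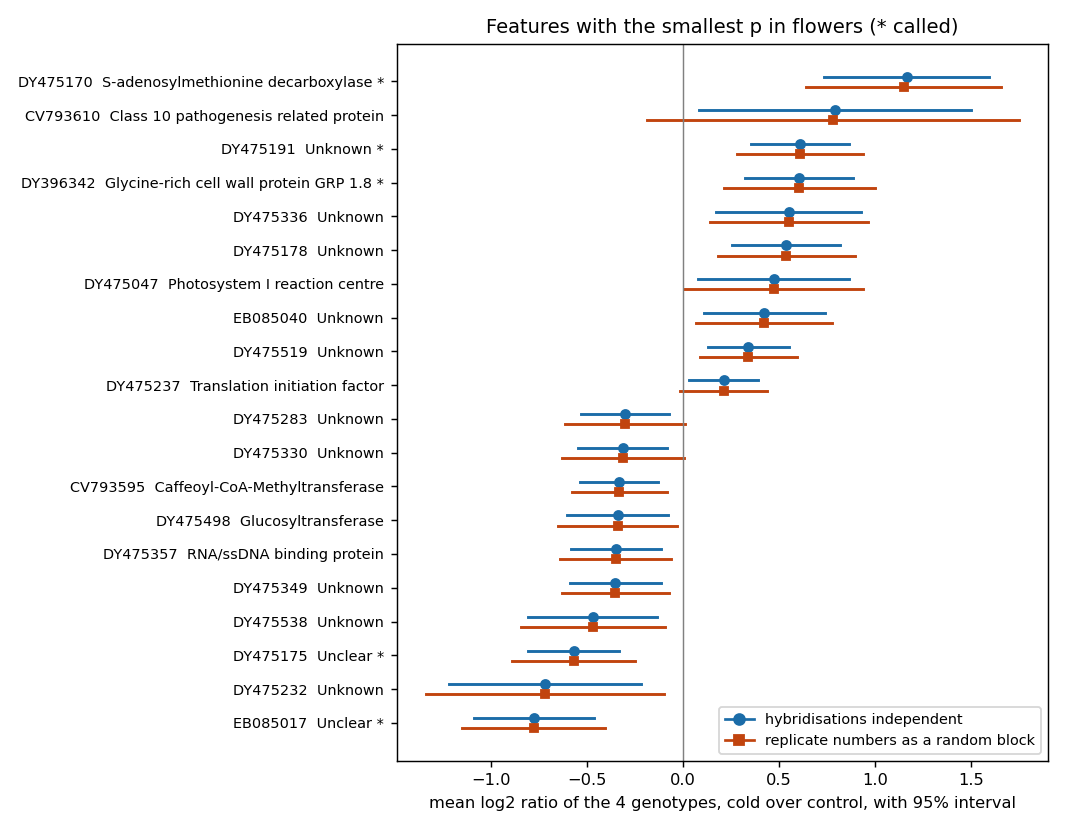
Mean log2 ratio of the 4 genotypes in flowers (horizontal axis) with its 95% interval for the 20 features of smallest p, 10 in each direction, named by accession and annotation; blue circles take the hybridisations as independent and red squares treat equal replicate numbers in a set as a random block. The red intervals are the wider ones, S-adenosylmethionine decarboxylase is the only feature whose mean passes 1, and features called without the block carry an asterisk.

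For most features the data bounded the shared response. The median mean ratio over the 446 features was -0.00, the quartiles were -0.14 and 0.09, and the range was -0.78 to 1.16. The 95% interval lay within a 2-fold change in either direction for 432 features (96.9%), and for 425 (95.3%) with the replicate block. The median SE was 0.14, or 0.17 with the block.

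The genotypes did not differ in any feature after adjustment. The F test over the 4 genotypes called 0 of 446 features, with 15 at an unadjusted p below 0.05, and the same 2 counts were obtained with the replicate block. The contrast of tolerant minus susceptible flowers called 0 with 1 feature at an unadjusted p below 0.05, and 0 with 7 under the block. The median SE of this contrast was 0.29, or 0.21 with the block. Across the 446 features, the genotype means of Tolerant1 and Susceptible1 had a Pearson's r of 0.53. It was 0.31 for Tolerant1 with Susceptible2, 0.14 for Tolerant2 with Susceptible1, -0.02 for Susceptible1 with Susceptible2, -0.06 for Tolerant2 with Susceptible2 and -0.27 for Tolerant1 with Tolerant2. For Tolerant1 and Susceptible1 the single hybridisations of equal number had r of 0.73, 0.51 and 0.47 and those of other numbers -0.09 to 0.18, so the likeness of these genotypes went with the shared replicate number. These coefficients are descriptions across features that share slides and normalization. The 8 pairs of hybridisations within a genotype had a mean r of 0.02 (range -0.17 to 0.25).

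The hybridisations were unequal in spread. The SD of the log2 ratios across features was 1.11 in replicate 2 of Tolerant1 and 0.69 in replicate 2 of Susceptible1, and between 0.37 and 0.46 in the other 8. The raw signal level differed as well. The control signal of the bright actin feature was 7045 and 3180 in these 2, against 38785 to 53902 in the other 8. Whether signal level had a part in the size of the ratios was not tested. Per the file headers, the scans of replicate 1 of Tolerant1 and of Susceptible1 were quantified in an early period, the other scans of these genotypes in a later one, and those of Tolerant2 and Susceptible2 in another. Without the 2 hybridisations of the early period, which had the most flagged spots, 2 features were called, S-adenosylmethionine decarboxylase (1.20) and DY475191 (0.69). At least 2-fold ratios were found for 26.7% of features in replicate 2 of Tolerant1 (32 higher, 85 lower) and 14.5% in replicate 2 of Susceptible1, against 1.44% to 4.28% elsewhere. Of the 84 features that were at least 2-fold lower in replicate 2 of Tolerant1 and measured in both, 30 (35.7%) were also at least 2-fold lower in replicate 2 of Susceptible1, where they made up 68.2% of the 44 such features. The median of these 30 over the other 8 hybridisations was 0.07, and 0 of them had a median below -1 there. Without both hybridisations 333 features could be tested and 0 were called, but S-adenosylmethionine decarboxylase and GRP 1.8 then lacked the values for a test. The part of these 2 hybridisations in the other results was not tested beyond the values given.

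**Figure D3:**
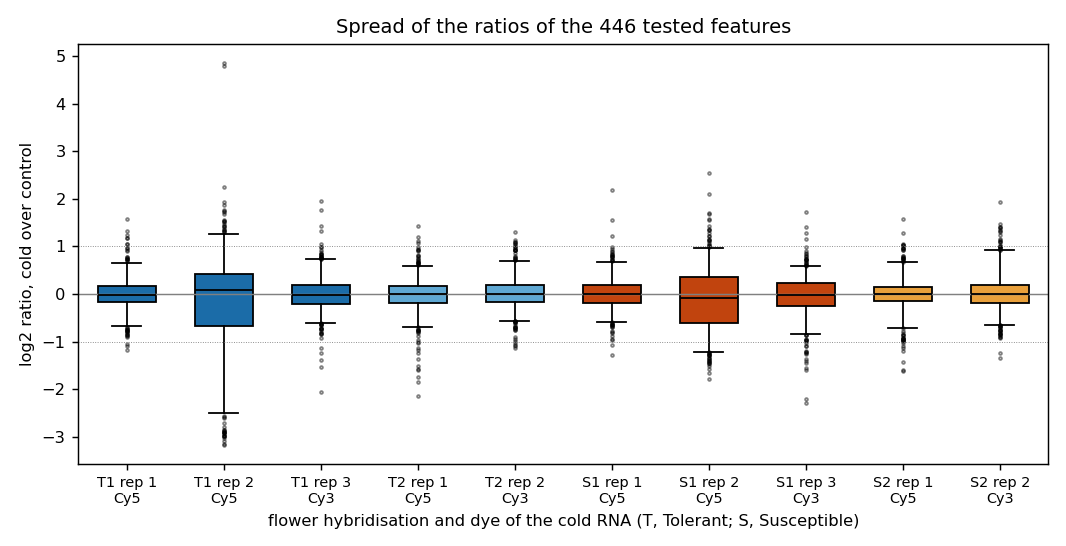
Log2 ratios of cold over control (vertical axis) of the 446 tested features in each flower hybridisation, with the dye of the cold RNA under each; boxes are quartiles with the median, whiskers reach the 5th and 95th percentiles and points lie beyond them. Replicate 2 of Tolerant1 (SD 1.11) and of Susceptible1 (SD 0.69) are wider than the other 8 (SD 0.37 to 0.46).

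Transcripts of respiratory and chloroplast NADH dehydrogenase, cytochrome c oxidase and ATP synthase held 4 of these 30 features. Of the 15 such features on the array 7 were tested and 0 were called. The 30 were found among 434 features with values in both hybridisations. Light harvesting, photosystems and electron carriers, a separate list with 25 tested, held 1 of them. The median shared ratio of the 7 was -0.08, beside -0.00 over all features. By hybridisation the median of the list was -1.47 in replicate 2 of Tolerant1 and -1.09 in replicate 2 of Susceptible1, and between -0.08 and 0.18 in the other 8. A cytochrome c oxidase subunit (DY475516), part of the terminal complex of mitochondrial respiration, was at -2.91 and -1.28 there and from -0.34 to 0.50 elsewhere. NADH-plastoquinone oxidoreductase chain 1 (DY475556), a subunit of the chloroplast complex that feeds electrons to plastoquinone, was at -3.02 and -1.24 and from -0.59 to 0.66 elsewhere. Without these 2 hybridisations the median of the list was 0.06, that is above 0. A second cytochrome c oxidase feature (DY475113) was at 0.19 and -0.06 in them, and the NADH dehydrogenase subunit DY475139 at -0.40 and 0.57.

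Ribosomal proteins and translation factors had higher median ratios in the same hybridisations. Of 34 features tested 27 had a mean above 0, beside 219 of all 446, the median was 0.07, and 0 were called. The medians by hybridisation were 0.44 and 0.29 in replicate 2 of Tolerant1 and of Susceptible1 and between -0.07 and 0.10 elsewhere, and without these 2 the median was 0.02. All 4 genotype means were above 0 for 11 of the 34, beside 48 of all 446. The 60S ribosomal protein L38 (DY475371) was at 1.86 and 0.84 in the 2 hybridisations and from -0.11 to 0.21 in the other 8. Not every member moved this way, and an elongation factor (DY475346) was at -2.24 and -0.48 in the 2 hybridisations and from -0.12 to 0.18 in the other 6 with a value.

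Ubiquitin and polyubiquitin, the small protein tag that marks proteins for degradation and its tandem precursor, were represented by 16 grasspea cDNAs with exactly these annotations, all of them tested, beside features named for ubiquitin in other words, which are not counted here. Their ratios followed the dye order in 2 genotypes. With the cold RNA in Cy5 the median of the 16 was -0.75 and -0.92 in replicates 1 and 2 of Tolerant1 and -0.93 in replicate 1 of Susceptible2. With it in Cy3 the median was 0.74 in replicate 3 of Tolerant1 and 0.86 in replicate 2 of Susceptible2. All features with a value were below 0 in the first 3 hybridisations and above 0 in the other 2. In Tolerant2 the medians were -0.03 and 0.16, and in Susceptible1 -0.35, 0.08 and -0.03. The means over genotypes lay between -0.25 and 0.08, and 0 were called. Among all 446 features a dye effect was called after adjustment for 45 (29 brighter in Cy5, 16 in Cy3). It was called for 0 of these 16 and 0 of the 5 called features. The fitted Cy5 over Cy3 effects of the 16 ran from -0.35 to 0.24 on the log2 scale, and most were below 0. Whether dye had a part in the ubiquitin values was not tested further. Features of the same name can hybridise to the same transcripts and are not independent.

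**Figure D4:**
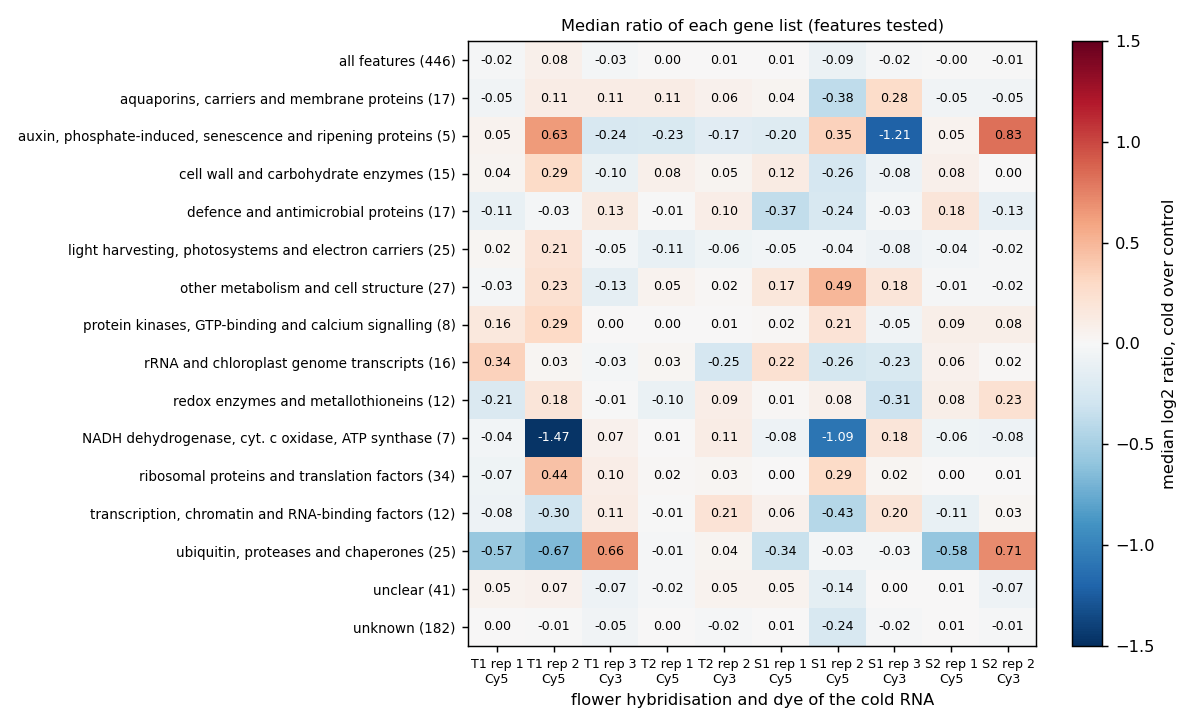
Median log2 ratio of cold over control (colour and printed value) of each list of named features (rows, with the number tested) in each flower hybridisation (columns, with the dye of the cold RNA; T, Tolerant; S, Susceptible). The NADH dehydrogenase, cytochrome c oxidase and ATP synthase list is at -1.47 and -1.09 only in replicate 2 of Tolerant1 and of Susceptible1. The ubiquitin, protease and chaperone list changes sign with the dye in Tolerant1 and Susceptible2.

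Light harvesting and photosystem transcripts as a group stayed near 0. Of 25 tested 10 were higher, 15 were lower and 0 were called, with a median of -0.02. All 8 chlorophyll a/b binding protein features that were tested, of 9 on the array, had means below 0, but the lowest was -0.33 (DY475489, adjusted p = 0.553) and the median -0.04. The one not tested, DY475555, had 4 values, -2.995 and -1.51 in replicate 2 of Tolerant1 and of Susceptible1 and 0.18 and 0.15 in Tolerant2 and Susceptible2. Chlorophyll a/b binding proteins form the antenna of the photosystems. Of 11 photosystem, oxygen splitting and plastocyanin features 9 had means above 0 (median 0.04). The labelled tissue held green parts. In the control channel 6 of the 8 chlorophyll a/b features measured in both tissues (DY475555 among them) and 10 of the 11 photosystem features were brighter in leaves than in flowers, relative to the array median, yet the flower medians were 1.97 and 1.33 on the log2 scale above that median. The PPF1 post floral protein feature was also brighter in leaves (2.42) than in flowers (0.47). This feature, post-floral by its annotation alone, was not higher in the labelled flowers. Whether it marks flowers or pods in chickpea was not tested.

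The dehydrins and dehydration-induced proteins, which protect cells against loss of water, were represented by 5 features, of which 2 were tested and 0 called. The dehydrin cold-induced protein (DY475092) had values of 0.38 and 0.50 in Tolerant1, -0.21 and 1.30 in Tolerant2, 0.26 and -0.51 in Susceptible1, and -0.12 and 0.76 in Susceptible2. Within 3 genotypes its replicates thus differed in sign (mean 0.29, adjusted p = 0.734). The dehydration-induced protein DY475070 ran from -2.29 to 0.97 and was below 0 in 8 of 10 hybridisations, the exceptions being both of Susceptible2 (mean -0.67, SE 0.32, adjusted p = 0.618). Of the 3 not tested, the dehydrin-cognate DY396324 had 7 values from -0.18 to 1.21, DY475192 had 7 from -0.48 to 0.33, and DY396321 had a single value of 0.03.

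Defence proteins (17 tested, median -0.03, 0 called) held the most variable feature. The class 10 pathogenesis-related protein (CV793610), of a family that plants raise after infection, was at 4.85 and 0.57 in replicates 2 and 3 of Tolerant1 and at -2.14 and 0.27 in Tolerant2. It was at 0.13, 0.06 and 0.85 in Susceptible1 and 0.69 and 1.40 in Susceptible2. The mean of 0.79 (SE 0.33, adjusted p = 0.503) therefore stood between values that ranged from -2.14 to 4.85. A feature annotated as chloroplast DNA (EB085019) followed it closely, with r = 0.998 over 8 hybridisations and a largest difference of 0.30. The grasspea pathogenesis-related protein DY396305 also followed it, with r = 0.96 over 6 hybridisations, or 0.86 over the 5 without replicate 2 of Tolerant1. A flavonol glucosyl transferase (CV793607), which modifies flavonoid pigments, was below 0 in 7 of 8 hybridisations (mean -0.61, adjusted p = 0.411).

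Among hormone-related transcripts, the grasspea auxin-repressed proteins DY396269 and DY396359 moved together (r = 0.99 over 6 hybridisations, largest difference 0.21). Both were near -1.6 in replicate 1 of Tolerant2, at -1.61 and -1.64, and near 1.3 in replicate 2 of Susceptible2, at 1.30 and 1.33. The grasspea DY396292 followed DY396269 (r = 0.98, 6 hybridisations). The grasspea features DY396289 and DY396379, of the same annotation, had values of 0.35 and 0.21 in replicate 2 of Tolerant1, where DY396292 was at -2.60 and DY396269 and DY396359 had none. The chickpea auxin-repressed protein DY475078 was at 1.71 in that hybridisation. Its r with DY396292 was -0.05 over 9 hybridisations and 0.51 over the 8 without it. Its values were 1.57 and 1.31 in Susceptible2 and -1.06, -0.24 and -1.23 in Susceptible1, and its mean was 0.23 (adjusted p = 0.909). Another chickpea feature of like annotation, DY475137, was at 1.69 in replicate 2 of Tolerant1. Its values in the 2 susceptible genotypes overlapped, at 0.05 and 0.21 in Susceptible2 and -0.20, 0.76 and -1.21 in Susceptible1. These likenesses are descriptions over few hybridisations, and the features are not independent where their sequences overlap.

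**Figure D5:**
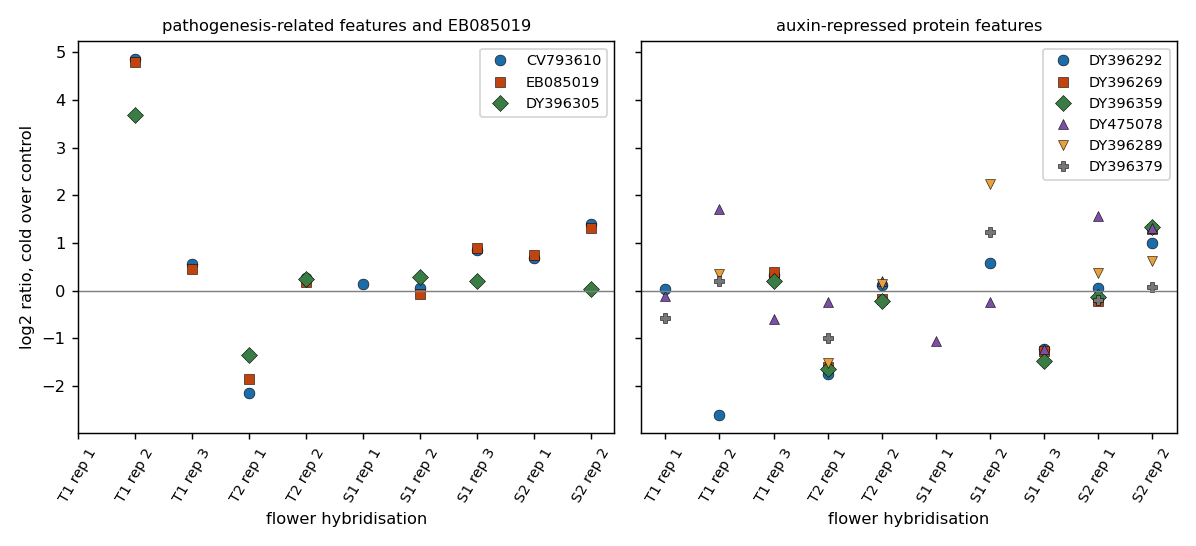
Log2 ratio of cold over control (vertical axis) in each flower hybridisation (horizontal axis; T, Tolerant; S, Susceptible) for the class 10 pathogenesis-related protein CV793610 with EB085019 and DY396305 (left) and for the auxin-repressed protein features (right). CV793610 and EB085019 differ by at most 0.30, and in replicate 2 of Tolerant1 the auxin-repressed features shown run from -2.60 (DY396292) to 1.71 (DY475078). DY475137 is not shown.

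The remaining lists had medians between -0.07 and 0.09. Carbohydrate and cell wall enzymes (15 tested) held GRP 1.8 as their only called member, with a median of 0.02 and the lowest mean at UDP-glucose 4-epimerase (DY475221, -0.38), which interconverts UDP-glucose and UDP-galactose. Aquaporins, carriers and membrane proteins (17 tested, median 0.03) ran from -0.28 to 0.24. Redox enzymes and metallothioneins (12 tested, median 0.03) ran from -0.32 for a cytochrome P450 (DY475136) to 0.21 for metallothionein MT-2 (DY475049). Transcription, chromatin and RNA-binding factors (12 tested) had a median of -0.06. The AP2/EREBP1 transcription factor feature (CV793594), of a family that holds the known cold regulators of plants, had 4 genotype means between 0.21 and 0.35 and was above 0 in 8 of 10 hybridisations (mean 0.27, adjusted p = 0.618). Features of unknown function (182 tested) had 1 induced and 0 repressed, with a median of -0.02, and those of unclear function (41 tested) 0 induced and 2 repressed, with a median of -0.07. Actin (DY475300), a structural gene often used as a reference, had a mean of 0.19 (adjusted p = 0.849). It was at 1.20 and 0.97 in replicate 2 of Tolerant1 and of Susceptible1, and from -0.17 to 0.17 in the other 8. Without these 2 hybridisations its mean was 0.01.

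A list of 20 transcripts was taken from the study's text on cold. It is not complete and leaves out, among others, those named for leaves alone, such as beta-glucosidase (DY475415, mean 0.07, adjusted p = 0.977) and sucrose synthase (DY475105, mean 0.12, adjusted p = 0.922). Of the 20, 6 had enough flower values for the test, and S-adenosylmethionine decarboxylase was the only one of the 6 called. Ferredoxin (DY475487), which carries electrons from photosystem I, had a mean of -0.01, and the chlorophyll a/b binding protein DY475554 a mean of -0.11. The phosphate-induced protein DY475076 was at 2.62 in replicate 2 of Tolerant1 and 1.03 in replicate 2 of Susceptible1 and between -0.83 and 0.61 in its 5 other values. The superoxide dismutase copper chaperone (DY475397) had 5 values and was not tested. They were 0.16 and -0.18 in Tolerant2, -0.86 and -0.27 in Susceptible2 and -0.28 in replicate 2 of Susceptible1. From these same samples the study reported it as repressed in flowers of both susceptible genotypes, with larger changes than these. It reported repression in both by quantitative PCR as well, again with larger changes. An ATP synthase feature (DY475423) had no unflagged flower value.

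The flower response was also set against that of leaves. In the 406 features with values in at least 2 hybridisations of each of the 8 groups, flowers minus leaves was called for 7 (1.72%), 1 higher and 6 lower in flowers, and for 0 with the replicate block, where the smallest adjusted p was 0.0624. Leaves and flowers of equal genotype and number also deviated together in part. Their mean r was 0.20 (range -0.16 to 0.51), above 0.1 in 6 of 10 pairs. Neither fit treated them as paired. The SNAKIN2 antimicrobial peptide precursor (CV793608), a secreted defence peptide, averaged 0.20 in flowers and 1.39 in leaves, a difference of -1.19 (SE 0.20, adjusted p = 0.00519). Its flower values were 0.76 and 1.05 in replicates 2 and 3 of Tolerant1 and 0.65 in replicate 3 of Susceptible1, and between -0.16 and 0.09 in the other 7. Another feature of the SNAKIN2 annotation, CV793606, was not among the 7 called. Beta-galactosidase (DY475141), which releases galactose from cell wall polymers, averaged 0.40 in flowers and -0.82 in leaves, a difference of 1.22 (SE 0.26, adjusted p = 0.0270). The unknown transcript DY475377 stood at 0.01 in flowers, with 9 of its 10 values between -0.01 and 0.11 and -0.32 in replicate 2 of Tolerant1, against 0.89 in leaves.

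None of the called flower features that could be compared differed from leaves by the test. EB085017 was below 0 in 11 of 11 leaf hybridisations (mean -1.11; difference 0.33, SE 0.20, adjusted p = 0.799). S-adenosylmethionine decarboxylase was above 0 in 10 of 11 (mean 0.84; difference 0.32, SE 0.27, adjusted p = 0.952). GRP 1.8 was above 0 in 10 of 10 (mean 0.67; difference -0.07, SE 0.18, adjusted p = 0.968), and DY475191 in 7 of 10 (mean 0.38; difference 0.23, SE 0.17, adjusted p = 0.944). DY475175 had a value in only 1 leaf hybridisation.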

How the data were processed

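Each hybridisation was deposited as 2 scanner files holding the intensity of each spot in 1 channel, which per the file headers the authors quantified with ImaGene 5.5, with signal, local background and flag and no normalization. A further table, deposited by the authors, gave 1 mean log2 value per feature and group after background subtraction, removal of flagged spots, LOWESS and a shifted log2 whose shift is not given in the sources used here; it was used as an alternative only. The 48 scanner files made 24 hybridisations, of which 2 were copies. In 1 file (Susceptible1 flowers, replicate 2, cold channel) spots were listed in another order and were matched by printed position. Of the 768 features (559 chickpea, 156 grasspea, 41 lentil, 12 controls), 732 were joined to the study's feature list by printed position and 36 by print order (among them actin, PPF1, MT-2, DY475076, DY475092 and DY475103). The reference table held 0 of 668 accessions looked up, so genome positions and sequences were not used here.

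Intensities were background corrected in limma 3.58.1 under R 4.3.3 (normexp, offset 50) and normalized by loess per hybridisation (span 0.3, 4 iterations; control and flagged spots with weight 0). Flagged spots were left out, every ratio was turned to cold over control, and the unflagged spots of a feature (at most 6) were averaged. Features with signal at least 2 times the background in 1 channel of 1 hybridisation were kept (738). Of their flower values 30.9% were missing, because between 42.4% and 76.4% of spots were unflagged in both channels, and the number of arrays limits the precision. Across features with a value, the spots of 1 hybridisation had a median SD of 0.08 to 0.18, beside 0.18 to 0.42 between hybridisations of a genotype. The script was tested on simulated data.

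A model of 8 group means over all 22 hybridisations (lmFit, eBayes) gave the contrasts, two-sided with Benjamini-Hochberg adjustment. Hybridisations of the same number in Tolerant1 and Susceptible1, or in Tolerant2 and Susceptible2, deviated from their group means together in each of 5 flower pairs, all of equal dye order (r 0.37 to 0.58). In Tolerant2 and Susceptible2, with 2 replicates, both pairs give the same coefficient, and the ratios themselves correlated at 0.24 and 0.08, against 0.47 to 0.73 in Tolerant1 and Susceptible1. Since every pair exceeded 0.1, the numbers were taken to pair the samples, and the fit with the replicate number as a random block (duplicateCorrelation, correlation 0.47) is given beside the main one. Alternatives covered background correction, normalization, filters, flags, dye, weights, copies, single hybridisations, genotypes and quantification periods. Named features were all those called, the 10 of smallest p per direction, the highest and lowest mean of each list of 5 or more features, 20 of the transcripts that the study named for cold, actin, and dehydrin or dehydration proteins; EB085024, named for its sign, beta-glucosidase, sucrose synthase, the further auxin-repressed, electron transport, photosystem and ubiquitin features and those differing from leaves were chosen after their values were seen. The members and the lists were chosen with earlier results of these data known.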

Additional observations from a re-analysis of the deposited data

Results flagged for a closer look

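Of the 50 named and tested features, 8 had 1 hybridisation far from the others by Dixon's criterion. Of these, 7 were in replicate 2 of Tolerant1, the hybridisation of widest spread. Chance gives such a value in about 1 of 20 groups that were chosen without regard to their values. The 7 were named as the highest or lowest mean of a list, and that mean includes the outlying value. The rate of 1 in 20 therefore does not apply to them. There the log2 ratio was 4.85 for the class 10 pathogenesis-related protein CV793610 (others -2.14 to 1.40), 0.68 for the chlorophyll a/b binding protein DY475489 (others -0.68 to 0.01), -2.91 for the cytochrome c oxidase subunit DY475516 (others -1.28 to 0.50), 1.86 for the 60S ribosomal protein L38 DY475371 (others -0.11 to 0.84), -2.24 for the elongation factor DY475346 (others -0.48 to 0.18), -2.47 for the RNA binding protein DY475297 (others -1.16 to 0.15) and 1.16 for the unclear transcript DY475235 (others -0.01 to 0.58). The 8th was the glucosyltransferase DY475498, at -1.34 in replicate 2 of Susceptible2 (others -0.53 to 0.19).

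Flowers and leaves differed by the limma contrast for 7 features. The difference of flowers minus leaves was 1.22 for beta-galactosidase DY475141 (adjusted p = 0.0270), -1.19 for the SNAKIN2 precursor CV793608 (0.00519), -1.16 for the unclear EB085045 (0.00949), and -0.89 for DY475377 (0.00949), -0.70 for CA0832 (0.0445), -0.64 for DY475382 (0.00949) and -0.57 for DY475437 (0.0270), these last of unknown function. With the replicate block their adjusted p lay between 0.0624 and 0.235.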

How the results depend on the processing

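The shared response had 5 called features, 1 of them at least 2-fold changed. The count was 3 with median centring, 1 with flagged spots kept, 3 on features with all 10 values (fewer were tested), 12 with the copied files counted as replicates, 3 without Tolerant2, and 0 without Tolerant1 or without Susceptible1. It was 0 with the replicate block, as a random block or by averaging. Chosen after seeing the data, it was 2 without the flower hybridisations of the early quantification period, 1 with the block and a dye term, and 0 without the 2 hybridisations of widest spread, within either set alone (each having fewer samples), or with the quantification period as a random block. On leaving out single hybridisations it ran from 0 to 5. The count at least 2-fold was 0 with flagged spots kept, all 10 values required, either replicate block, without the widest 2, in each set alone, with the period block, and without Tolerant1 or Susceptible1, and 0 to 1 on leaving out single hybridisations. It was 4 in the authors' table, without a test, whose scale is unknown. Flowers minus leaves had 7 called, 0 with the replicate block or the period block, and 4 to 8 on leaving out single flower hybridisations (4 without Tolerant1 replicate 3, Tolerant2 replicate 2 or either replicate of Susceptible2). Differences among genotypes and between tolerance classes had 0 called in every setting run. Apart from the construction of a setting, the cause was not tested. The methods' t-test put 41 features at their threshold before and 4 after Benjamini-Hochberg adjustment, 3 of them among the 5. No called feature changed direction in any setting run. How far signal over background limited dim features, such as S-adenosylmethionine decarboxylase in control flowers (2.08 to 2.95 times the background), was not tested.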
